A study of Homo sapiens with 6 samples.

Results

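Cohesin is the ring-shaped complex that holds sister chromatids together, and 10 genes of the complex and of the factors that load, release and acetylate it were examined in OE-19 cells with and without IGF2BP3 KD. The genes were chosen by symbol: *SMC1A*, *SMC3*, *RAD21*, *STAG1*, *STAG2*, *NIPBL*, *WAPL*, *PDS5A*, *PDS5B* and *ESCO2*, 10 of the 60480 gene identifiers listed in the deposited counts. OE-19 is an established cell line of adenocarcinoma of the esophagogastric junction (AEG), grown in RPMI1640 with fetal bovine serum. Poly(A) RNA was sequenced from 3 libraries of control cells, titled shControl, and 3 libraries of cells carrying a short hairpin against *IGF2BP3*, titled shIGF2BP3. The control libraries are also labelled Puro, and the labels do not say what vector the control cells carried. IGF2BP3 is an RNA-binding protein that reads m6A, a methyl mark on adenosines of mRNA. Both groups are the same line, but the sources used here do not say whether they were otherwise handled alike. The labels give neither the hairpin sequence nor a time after its delivery. The labels number the libraries but do not say that they came from separate cultures, so the p-values measure only the spread between these libraries, which may be technical.

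The core ring is formed by SMC1A and SMC3, a pair of long coiled-coil ATPases, and by the kleisin RAD21, which closes the ring. STAG1 or STAG2 binds RAD21 and helps to place the ring on DNA. NIPBL, with its partner MAU2, loads cohesin and drives its ATPase, while WAPL with the scaffold proteins PDS5A and PDS5B opens the ring and releases it. In S phase ESCO2 acetylates SMC3 and thereby makes cohesion stable until mitosis. The same ring also extrudes chromatin loops in interphase, which CTCF bounds.

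*IGF2BP3* itself had 7416, 7363 and 6532 counts in the control libraries and 777, 792 and 794 counts in the IGF2BP3 KD libraries. In CPM, counts scaled to the TMM-adjusted size of each library, its level was 108 ± 2.92 in control cells and 13.2 ± 0.995 in IGF2BP3 KD cells (SD, n = 3), and the log2 fold change was -3.03 (SE 0.06, edgeR adjusted p = 3.10e-10). All libraries therefore matched their labels. Total counts lay between 53424071 and 69989087 per library. All 7 epithelial markers (*EPCAM*, *CDH1*, *KRT8*, *KRT18*, *KRT19*, *ERBB2* and *CLDN4*) exceeded 1 CPM in all 6 libraries, with a summed level of 18478 to 19471 CPM in control and 20167 to 20627 CPM in IGF2BP3 KD libraries. Of the fibroblast markers only *COL1A1* exceeded 1 CPM, and the summed level of the 5 markers was 20.8 to 24.0 CPM in control and 29.6 to 34.1 CPM in IGF2BP3 KD libraries. Of the leukocyte markers *CD68* and *LYZ* exceeded 1 CPM, at a summed level of 2503 to 2732 CPM in control and 2540 to 2613 CPM in IGF2BP3 KD libraries for the list of 4, while *PTPRC* and *CD3E* did not. Nearly all of that sum was *LYZ*, whose groups overlapped. Of the markers from other cell types, *CD68* was higher in IGF2BP3 KD cells, at 51.9 ± 2.89 against 35.8 ± 2.62 CPM (log2 fold change 0.54, edgeR adjusted p = 1.86e-04), and so was *COL1A1*, at 30.8 ± 2.32 against 21.7 ± 1.65 CPM (log2 fold change 0.50, adjusted p = 7.83e-04). None of the 3 endothelial markers exceeded 1 CPM. The part of these markers in the cohesin values was not tested.

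Most of the cohesin genes were modestly lower in IGF2BP3 KD cells. Of the 10 genes, all of which passed the low-count filter, 8 were lower (*SMC1A*, *SMC3*, *RAD21*, *STAG1*, *NIPBL*, *WAPL*, *PDS5A* and *PDS5B*), 1 was higher (*STAG2*) and *ESCO2* did not pass the test. The test was edgeR's quasi-likelihood test with an adjusted p under 0.05, by which 10.6% of the 19778 genes tested were lower and 9.87% were higher. The median log2 fold change of the 10 genes was -0.18, against 0.01 over all genes tested. The changes were small, from -0.41 in *PDS5B* to 0.14 in *STAG2*, which corresponds to 75.1% and 110.5% of the control mean. In 9 of the 10 genes all IGF2BP3 KD values lay below all control values, as they did in 17.8% of genes tested, and in *STAG2* they all lay above, as in 18.0%. In bulk RNA, less transcript per cell and fewer cells that express a gene cannot be told apart.

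**Figure D1:**
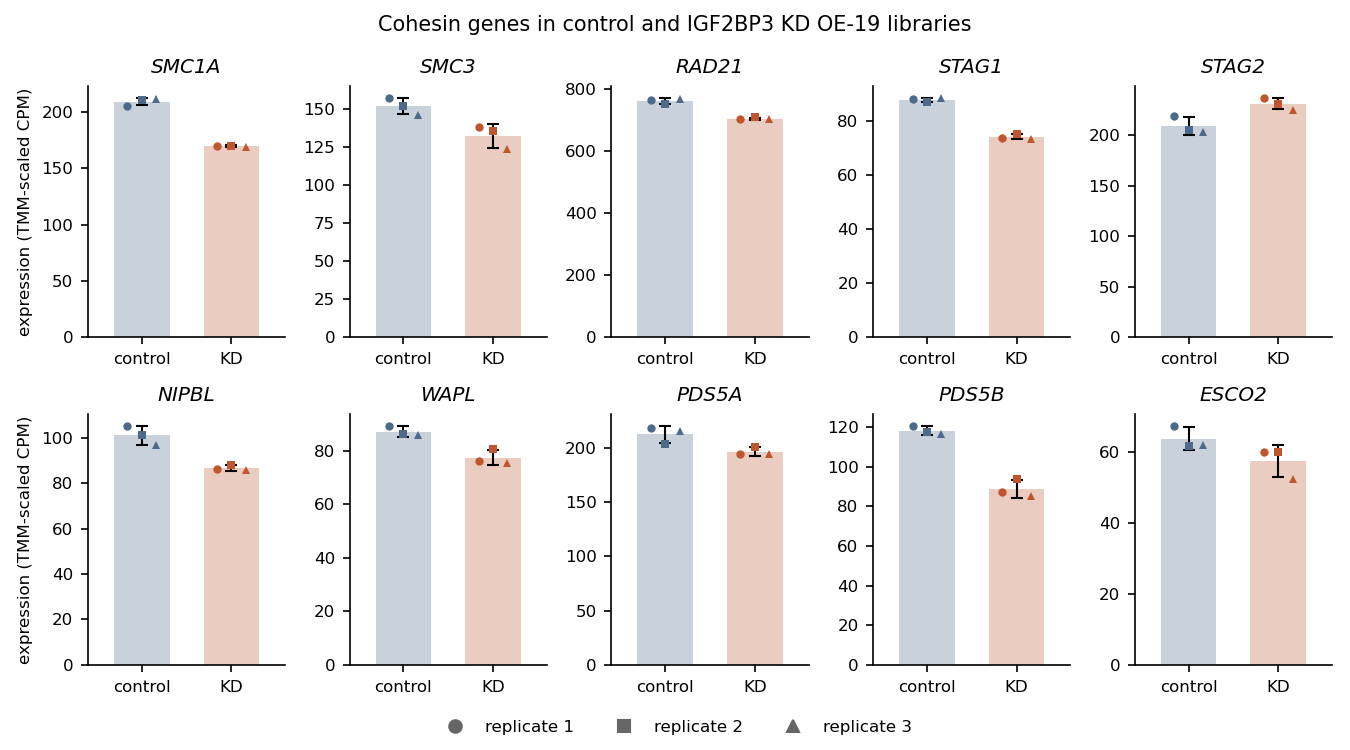
Level of each cohesin gene in OE-19 cells, as TMM-scaled CPM on axes that start at 0, with bars for the mean of 3 libraries, error bars for the SD and 1 point per library. In *SMC1A* the IGF2BP3 KD points sit between 168.8 and 170.4 CPM below control points of 206 to 212 CPM, and only in *STAG2* are the IGF2BP3 KD points the higher ones.

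The ATPase subunits and the kleisin were all lower. *SMC1A* (ENSG00000072501, chromosome X, 53374149 to 53422728 in hg38) had 14105, 14709 and 12400 counts in control libraries and 9201, 10577 and 10645 counts in IGF2BP3 KD libraries, or 209 ± 3.18 and 169.8 ± 0.889 CPM (SD, n = 3). Every IGF2BP3 KD library was below every control library, and the gap between the groups was wider than the range within either. The log2 fold change was -0.30 (SE 0.03, 95% interval -0.37 to -0.24, edgeR adjusted p = 2.89e-05). *SMC3*, the partner ATPase and the target of acetylation by ESCO2 (chromosome 10, 110567684 to 110606048), had 10791, 10608 and 8592 counts in control and 7462, 8445 and 7801 counts in IGF2BP3 KD libraries. Its level fell from 152 ± 5.42 to 133 ± 7.80 CPM. The groups did not overlap, although the nearest libraries, 146.6 and 138 CPM, lay close together. Its log2 fold change was -0.20 (SE 0.05, adjusted p = 0.0103).

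*RAD21*, the kleisin that separase cuts at anaphase (chromosome 8, 116845934 to 116874776), was the most counted of the 10 genes, with 52455, 52269 and 44982 counts in control and 37919, 43988 and 44267 counts in IGF2BP3 KD libraries. The change was small but the libraries of each group were close to each other, at 761 ± 9.66 CPM in control and 704 ± 3.52 CPM in IGF2BP3 KD cells, without overlap. The log2 fold change was -0.11 (SE 0.02, adjusted p = 0.00332), less than that of *SMC1A*, and the intervals of both genes, -0.16 to -0.06 for *RAD21* and -0.37 to -0.24 for *SMC1A*, do not meet. *RAD21* shares 576 exonic bases, 4.01% of its exons, with *UTP23* on the opposite strand, which was also lower (log2 fold change -0.25, adjusted p = 0.0214). The library kit keeps the strand, but the sources used here do not give the strand setting of the counting, and the part of shared bases in the result was not tested.

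The STAG paralogs, alternative subunits of the ring, moved in opposite directions. *STAG1* (chromosome 3, 136336236 to 136752403) had 6053, 6085 and 5190 counts in control and 3992, 4679 and 4646 counts in IGF2BP3 KD libraries, which is 88.1 ± 0.672 and 74.3 ± 0.892 CPM. *STAG2* (chromosome X, 123960212 to 124422664) had 15026, 14332 and 11893 counts in control and 12785, 14370 and 14212 counts in IGF2BP3 KD libraries, or 209 ± 8.75 and 231 ± 5.70 CPM. The values of *STAG1* fell in every IGF2BP3 KD library, and those of *STAG2* were higher in every one, with no overlap in either gene. The log2 fold change was -0.25 for *STAG1* (SE 0.04, interval -0.33 to -0.16, adjusted p = 8.47e-04) and 0.14 for *STAG2* (SE 0.04, interval 0.06 to 0.22, adjusted p = 0.0150). The call of *STAG2* was lost in 4 of the 6 fits that leave out 1 library: its adjusted p was 0.0728 without control replicate 2, 0.0915 without control replicate 3, 0.0826 without IGF2BP3 KD replicate 1 and 0.0585 without IGF2BP3 KD replicate 2, with a log2 fold change of 0.12 to 0.18 whichever library was left out. *STAG1* shares 1661 exonic bases, 21.2% of its exons, with *PCCB* on the opposite strand, whose log2 fold change was 0.04 (adjusted p = 0.654).

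The ratio of *STAG2* to *STAG1* in each library sets the paralogs against each other without any scaling between libraries. It was 2.48, 2.36 and 2.29 in control and 3.2, 3.07 and 3.06 in IGF2BP3 KD libraries, so the groups did not overlap. The ratio was 1.31-fold higher in IGF2BP3 KD cells, a difference of 0.39 on the log2 scale (SE 0.04). The two-sided exact permutation p was 0.1, the smallest that 3 against 3 libraries allow, and 0.2 after Benjamini-Hochberg adjustment over the 4 ratios examined.

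The promoters of the STAG paralogs are shown because these genes moved apart. They are RefSeq windows of 300 bases on GRCh38.p14, from 250 bases before to 50 bases after the start, written 5′ to 3′ on the strand of the gene, at chr3:136752329-136752628 (minus strand) for *STAG1* and chrX:123960310-123960609 (plus strand), the first of the 3 windows listed for *STAG2*. Capitals mark CCAAT, the word that NF-Y binds, and TTCCCGC, a word that E2F factors bind, each in either orientation.
STAG1: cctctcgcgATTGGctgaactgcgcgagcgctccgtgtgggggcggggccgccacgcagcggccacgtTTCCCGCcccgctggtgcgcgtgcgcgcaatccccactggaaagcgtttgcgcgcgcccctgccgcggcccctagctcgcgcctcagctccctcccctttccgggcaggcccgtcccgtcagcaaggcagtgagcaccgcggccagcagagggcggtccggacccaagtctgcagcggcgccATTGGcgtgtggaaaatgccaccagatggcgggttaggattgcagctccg
STAG2: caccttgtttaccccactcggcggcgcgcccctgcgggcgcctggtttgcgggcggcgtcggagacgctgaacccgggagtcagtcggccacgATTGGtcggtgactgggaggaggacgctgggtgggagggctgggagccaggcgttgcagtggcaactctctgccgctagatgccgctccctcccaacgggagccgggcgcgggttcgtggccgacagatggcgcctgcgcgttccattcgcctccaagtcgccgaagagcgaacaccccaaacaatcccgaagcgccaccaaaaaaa
The *STAG1* window holds CCAAT at 2 places, both as ATTGG, and TTCCCGC at 1, while this *STAG2* window holds CCAAT at 1 and no TTCCCGC. Of the other 2 windows of *STAG2*, neither holds TTCCCGC, and the third holds CCAAT at 2 places, as many as *STAG1*, while the second holds none. Of the 10 genes, 8 have windows in the RefSeq table, 11 in all. CCAAT occurs in 6 of these 11 windows, which belong to *STAG1*, *STAG2*, *PDS5A*, *PDS5B* and *WAPL*, and in 34.6% of all 35116 windows. TTCCCGC occurs in 3 of the 11, those of *STAG1* and *PDS5A* and 1 of *SMC1A*, and in 6.55% of all windows. Windows of the same gene can overlap, so they are not separate observations. A match is a description of the letters and not a binding site.

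*NIPBL*, the loader, was lower. It had 7209, 7054 and 5679 counts in control and 4652, 5473 and 5396 counts in IGF2BP3 KD libraries (chromosome 5, 36876769 to 37066413), or 101 ± 4.14 and 86.6 ± 1.33 CPM. The groups did not overlap, and the log2 fold change was -0.22 (SE 0.04, interval -0.31 to -0.13, adjusted p = 0.00268). Its partner *MAU2*, which is not among the 10 genes, had 71.7 ± 2.27 CPM in control and 64.9 ± 2.57 CPM in IGF2BP3 KD cells. All IGF2BP3 KD libraries of *MAU2* were below the control libraries, but the change did not pass the test (log2 fold change -0.14, SE 0.05, adjusted p = 0.0530). The call for *MAU2* depends on the settings, with an adjusted p from 0.00981 to 0.173 over 14 alternatives, of which 7 were under 0.05, and of the fits that leave out 1 library only that without control replicate 1 passed the threshold (0.0427). The ratio of *NIPBL* to *MAU2* was 1.51, 1.42 and 1.31 in control and 1.39, 1.34 and 1.28 in IGF2BP3 KD libraries, and the groups overlapped (difference on the log2 scale -0.08, SE 0.07, exact permutation p = 0.4). Single libraries moved this difference, to -0.03 without control replicate 1, -0.13 without control replicate 3 and -0.05 without IGF2BP3 KD replicate 3.

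*PDS5B* had the largest change of the 10 genes. It had 8276, 8207 and 6821 counts in control and 4713, 5842 and 5378 counts in IGF2BP3 KD libraries (chromosome 13, 32586452 to 32778019). Its level fell from 118 ± 2.24 to 88.9 ± 4.60 CPM, without overlap, and the log2 fold change was -0.41 (SE 0.04, interval -0.51 to -0.32, adjusted p = 5.65e-05). The paralog *PDS5A* (chromosome 4, 39822863 to 39977956) had 14976, 14166 and 12612 counts in control and 10496, 12480 and 12257 counts in IGF2BP3 KD libraries, or 212 ± 8.05 and 196.5 ± 3.78 CPM. Its highest IGF2BP3 KD library, at 200.9 CPM, was just below its lowest control library, at 203 CPM. The log2 fold change was -0.11 (SE 0.03, interval -0.19 to -0.04, adjusted p = 0.0416), and the interval did not meet that of *PDS5B*. The call of *PDS5A* was lost in 5 of the 6 fits that leave out 1 library, with an adjusted p of 0.0826 without control replicate 1, 0.141 without control replicate 3, 0.123 without IGF2BP3 KD replicate 1, 0.0659 without IGF2BP3 KD replicate 2 and 0.123 without IGF2BP3 KD replicate 3. It was also lost with no low-count filter (0.0880), with the trend on exon length removed (0.0727) and with a replicate block (0.0631).

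*WAPL*, which opens the ring with either PDS5 protein (chromosome 10, 86435256 to 86521792), had 6124, 6011 and 5027 counts in control and 4121, 5001 and 4756 counts in IGF2BP3 KD libraries, or 87.1 ± 1.95 and 77.4 ± 2.72 CPM. The groups did not overlap, and the log2 fold change was -0.17 (SE 0.04, adjusted p = 0.0147). The adjusted p rose to 0.0531 without IGF2BP3 KD replicate 1 and to 0.0561 without IGF2BP3 KD replicate 3.

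Ratios set these factors against each other within a library. The ratio of *PDS5A* to *PDS5B* was 1.81, 1.73 and 1.85 in control and 2.23, 2.14 and 2.28 in IGF2BP3 KD libraries, without overlap. This was a 1.23-fold higher ratio (difference 0.30 on the log2 scale, SE 0.04), with an exact permutation p of 0.1, the smallest possible, and 0.2 after adjustment. The ratio of *NIPBL*, which loads cohesin, to *WAPL*, which releases it, was 1.18, 1.17 and 1.13 in control and 1.13, 1.09 and 1.13 in IGF2BP3 KD libraries. Here the groups overlapped (difference on the log2 scale -0.05, SE 0.03, exact permutation p = 0.2, adjusted p = 0.267).

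**Figure D2:**
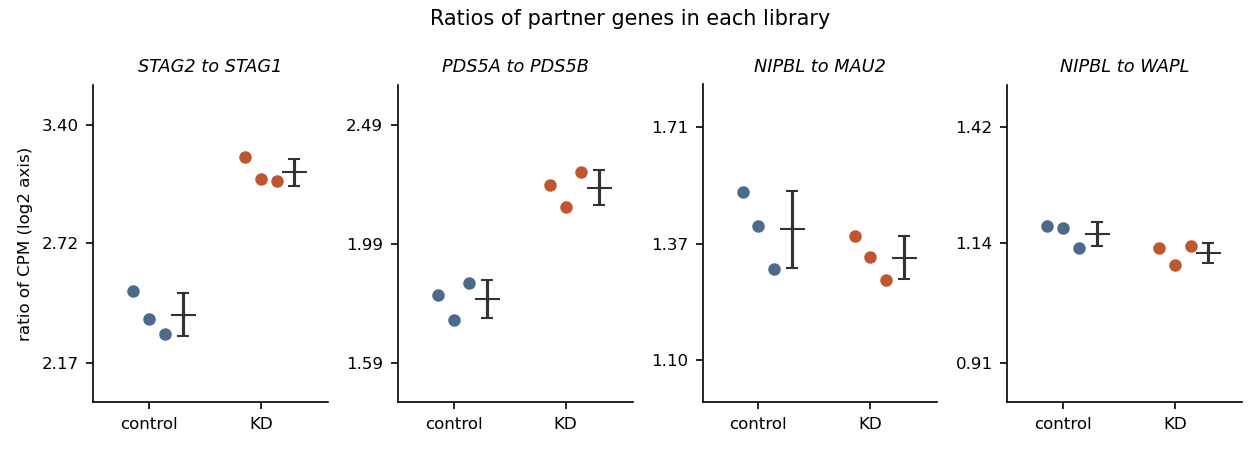
Ratio of CPM of partner genes in each library on log2 axes, with points for libraries and a bar with whiskers for the mean ± SD of the log2 ratio. STAG2 to STAG1 and PDS5A to PDS5B separate the groups, 2.29 to 2.48 against 3.06 to 3.2 and 1.73 to 1.85 against 2.14 to 2.28, while both NIPBL ratios overlap.

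*PDS5B* was also the only one of the 10 genes whose 3′ UTR holds GATTACT, a word of 7 bases whose genes were already known to be lower more often than others in these data, so the match gives no independent support. Sites of the word in *PDS5B* and in the other genes of the cohesin regulators, condensin and SMC5/6 that hold it are shown as letters to compare, with 10 bases on either side, on the strand of the gene and with the word in capitals. They lie in hg38 at chr13:32775696-32775722 (plus strand) for *PDS5B*, at chr3:20170130-20170156 and chr3:20170066-20170092 (minus strand) for *SGO1*, and at chr2:17665299-17665325 (minus strand) for *SMC6*, each within a single exon.
PDS5B: gaagttcttgGATTACTttacacctca
SGO1, first site: aaagtgctggGATTACTgagccactgt
SGO1, second site: aatgaataatGATTACTcaaataagat
SMC6: tgcaatttaaGATTACTattactttaa
The *PDS5B* site starts at base 654 of a 3′ UTR of 2967 bases. The word occurs in the 3′ UTR of 7.69% of 13939 tested coding genes, which had a median log2 fold change of -0.13, against 0.01 for the rest, and 35.1% against 12.6% of which were lower. Genes with the word also have longer 3′ UTRs, with a median of 3476.5 against 1130 bases, and the part of length in that difference was not tested. The log2 fold changes of the 3 genes with sites were -0.41 for *PDS5B*, -0.48 for *SGO1* and -0.65 for *SMC6*. The other 7 cohesin genes called lower hold no GATTACT in the 3′ UTR of the transcript examined.

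Of further words, ACACATC, which occurs in the 3′ UTR of 9.53% of tested coding genes, is in none of the 10 genes. TGGAC, a form of the m6A consensus, occurs in the 3′ UTR of 61.4% of tested coding genes and in 4 of the 10, with 6 places in *SMC1A*, 2 in *STAG1*, 2 in *PDS5B* and 1 in *PDS5A*. *STAG2*, the gene that was higher, has none in a 3′ UTR of 2059 bases, and neither have *SMC3*, *RAD21*, *NIPBL*, *WAPL* and *ESCO2*. Tested coding genes with TGGAC had a median log2 fold change of -0.0005, against -0.0020 for the rest, and 15.6% against 12.4% were lower. Their median 3′ UTR was 2030 bases, against 494 for the rest. A word in a 3′ UTR says nothing of methylation or of binding by IGF2BP3, neither of which was measured in these libraries.

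*ESCO2*, the acetyltransferase of S phase (chromosome 8, 27771949 to 27812640), had 4619, 4299 and 3635 counts in control and 3245, 3735 and 3295 counts in IGF2BP3 KD libraries, or 63.7 ± 3.21 and 57.5 ± 4.54 CPM. All IGF2BP3 KD values were below the control values, but the nearest, 60.1 and 61.7 CPM, were close. The change did not pass the test after adjustment (log2 fold change -0.15, SE 0.06, interval -0.29 to -0.01, edgeR adjusted p = 0.136), and in no alternative did it do so. Without IGF2BP3 KD replicate 3 the log2 fold change was -0.09 (adjusted p = 0.389). Genes that mark S phase in the Seurat list were lower in 36 of 42 tested (85.7%, against 10.6% of all genes tested). Their median log2 fold change was -0.37, against 0.01 over all genes tested. No gene of that list was higher by edgeR (0 at an unadjusted p under 0.05, 0 by DESeq2), against 9.87% of all genes tested. The G2/M list had 20 lower (38.5%) and 1 higher among 52 tested genes, and its median was -0.09. The part of cell cycle position in the cohesin values was not tested.

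Beyond the 10 genes, 15 other regulators of cohesin were examined, of which 14 passed the low-count filter. Of these, 4 were lower (28.6%, against 10.6% of all genes tested). The median log2 fold change was -0.08, against 0.01 over all genes tested. No regulator was higher by edgeR, against 9.87% of all genes tested, with 0 at an unadjusted p under 0.05 and 0 by DESeq2. *SGO1*, the shugoshin that protects centromeric cohesin in mitosis, had the largest change of the 4, from 21.7 ± 0.478 to 15.6 ± 1.43 CPM (log2 fold change -0.48, SE 0.08, adjusted p = 0.00142). *DDX11*, a helicase that acts in cohesion at replication forks, had a log2 fold change of -0.25 (SE 0.04, adjusted p = 0.00187). *CDCA5*, which encodes sororin, the antagonist of WAPL on acetylated cohesin, changed by -0.17 (SE 0.04, adjusted p = 0.00956). *CTCF*, the DNA-binding protein at which loop extrusion stops, changed by -0.18 (SE 0.04, adjusted p = 0.00780). Over the whole list, all IGF2BP3 KD values lay below all control values in 6 genes, against 17.8% of all genes tested. These were the 4 called genes, *MAU2* and *ZNF143*. In 1 gene, *RAD21L1*, which had under 1 CPM, they all lay above, against 18.0% of all genes tested.

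The remaining regulators did not pass the test. The acetyltransferase *ESCO1*, which also acts outside S phase, had a log2 fold change of 0.05 (SE 0.06), and the SMC3 deacetylase *HDAC8* one of 0.03 (SE 0.08). For the anaphase genes the values were -0.02 for *ESPL1*, which encodes separase, 0.03 for its inhibitor *PTTG1*, and -0.02 for *SGO2*, with the groups overlapping in each. *ZNF143*, a zinc-finger protein found at promoters and loop anchors, had a value of -0.17 (SE 0.07, adjusted p = 0.103), with all IGF2BP3 KD libraries below the control libraries. The germ-cell paralogs had low levels. *STAG3* had 2.86 ± 0.273 CPM in control and 3.55 ± 1.03 CPM in IGF2BP3 KD cells, while *REC8*, *RAD21L1* and *SMC1B* stayed under 1 CPM in all libraries. Where tested, the log2 fold changes of these genes varied in size with single libraries, and none passed the test. That of *STAG3* was 0.31 (SE 0.22), but 0.05 without IGF2BP3 KD replicate 3 and 0.47 without IGF2BP3 KD replicate 1. For *REC8* it was -0.79 (SE 0.51), but -0.48 without IGF2BP3 KD replicate 2 and -1.42 without IGF2BP3 KD replicate 3. For *RAD21L1* it was 0.45 (SE 0.46), but 0.27 without control replicate 1 and 0.66 without control replicate 2. *SMC1B* did not pass the low-count filter.

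**Figure D3:**
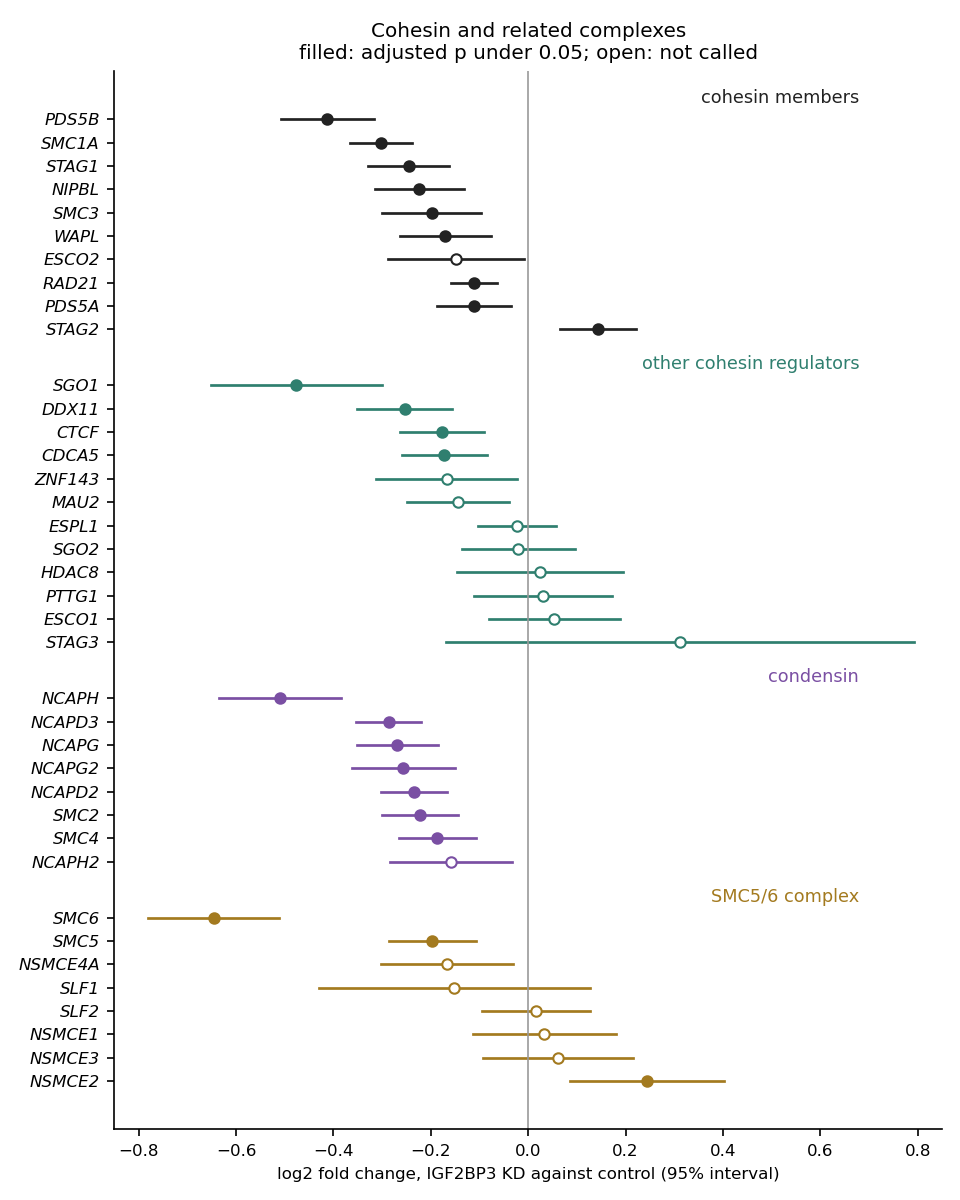
Fitted log2 fold change with 95% interval for the cohesin genes, other cohesin regulators, condensin and SMC5/6 genes, with filled points where the adjusted p was under 0.05. Genes with a mean under 1 CPM (*REC8*, *RAD21L1* and *EID3*) and the untested *SMC1B* are not drawn; the cohesin genes range from -0.41 (*PDS5B*) to 0.14 (*STAG2*), and *SMC6* has the lowest value drawn, -0.65.

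The other SMC complexes were set beside cohesin. Condensin, which compacts mitotic chromosomes, had 7 of 8 genes lower (87.5%, against 10.6% of all genes tested). Its median log2 fold change was -0.25. All 8 values were negative, as were 48.6% of those of all genes tested. *NCAPH*, the kleisin of condensin I, changed most, from 42.7 ± 0.715 to 30.0 ± 1.51 CPM (log2 fold change -0.51, SE 0.06, adjusted p = 8.91e-05), and *NCAPH2* had a value of -0.16 that did not pass the test (adjusted p = 0.0762). That value depended on single libraries and settings: it was -0.10 without control replicate 3 (adjusted p = 0.266) and -0.20 without control replicate 1 (adjusted p = 0.0463), and the adjusted p was also under 0.05 with at least 10 counts in every library (0.0435), with DESeq2 (0.0213) and with the GC trend removed, without (0.0163) and with (0.0188) the replicate block. The SMC5/6 complex, which acts in DNA repair and replication, had 2 of 9 genes lower (22.2%, against 10.6% of all genes tested), 1 higher, which is near the 9.87% of all genes tested, and a median of 0.02. *SMC6* fell from 70.4 ± 5.36 to 45.0 ± 1.80 CPM (log2 fold change -0.65, SE 0.06, adjusted p = 2.83e-05), and its partner *SMC5* had a log2 fold change of -0.20 (SE 0.04, adjusted p = 0.00504). *NSMCE2*, the SUMO ligase of the complex, was higher, at 27.2 ± 1.80 against 22.9 ± 1.39 CPM (log2 fold change 0.24, SE 0.07, adjusted p = 0.0337), but of the 6 fits that leave out 1 library only that without control replicate 1 kept the call, and the adjusted p was 0.0930 and 0.142 without control replicates 2 and 3 and 0.0561, 0.152 and 0.0629 without IGF2BP3 KD replicates 1, 2 and 3. No test of one complex against another was made, and the counts describe these lists only.

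Per length of transcript, *RAD21* stood far above its partners. In control cells it had 208 ± 2.64 CPM per kb of its canonical transcript, against 21.6 ± 0.328 for *SMC1A* and 27.5 ± 0.982 for *SMC3*. The order below *RAD21* in control cells was *STAG2* (33.9), *PDS5A* (29.8), *SMC3* (27.5), *SMC1A* (21.6), *ESCO2* (17.0), *PDS5B* (15.8), *STAG1* (14.5), *WAPL* (13.8) and *NIPBL* (9.70 CPM per kb). Of neighbours in this order only *PDS5A* and *SMC3* overlapped in range over the control libraries. In IGF2BP3 KD cells the first 6 places and the last were as in control cells, and *WAPL* (12.3), *STAG1* (12.3) and *PDS5B* (11.9 CPM per kb) took the places between. These neighbours could not be placed in order, since *WAPL* overlapped *STAG1* and *STAG1* overlapped *PDS5B*. The values assume that all counts of a gene come from its canonical transcript, which was not tested.

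**Figure D4:**
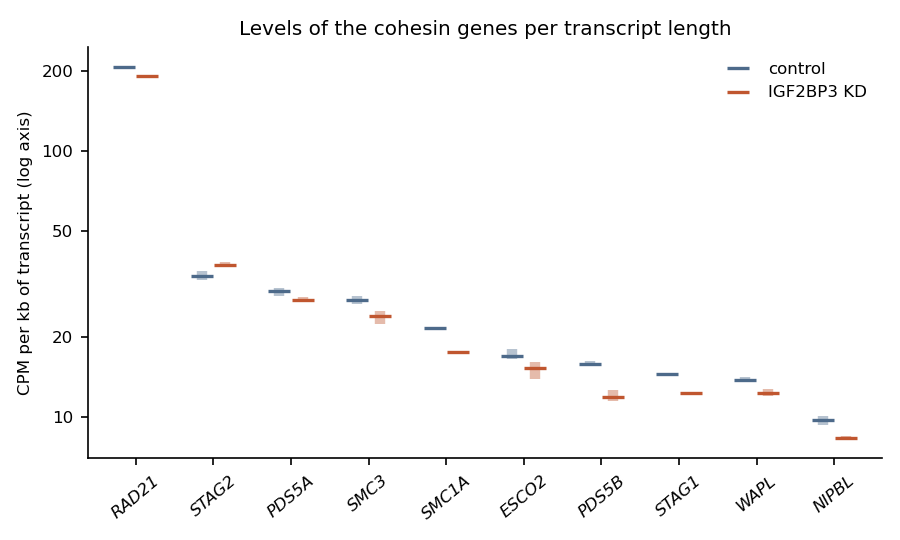
Level of each cohesin gene per kb of canonical transcript on a log axis, with a line for the mean and a shaded bar for the range of 3 libraries in each group. *RAD21* lies at 208 CPM per kb in control and 192 in IGF2BP3 KD cells, and the other genes lie between 8.31 and 37.4.

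All 10 genes lay below the median GC content of tested genes, a property that the choice by symbol did not use. Their longest annotated transcripts had a GC content of 36.0% to 47.2%, with a median of 39.7%, against a median of 48.4% over tested genes. When the dependence of the counts on GC content was taken out per library, the count of lower cohesin genes was again 8 and that of higher genes 1. The log2 fold change of each of the 10 genes was slightly higher in that fit than in the main fit. It was -0.397 against -0.413 for *PDS5B* and 0.160 against 0.143 for *STAG2*. Beyond these values, the part of GC content in the cohesin values was not tested.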

How the data were processed

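RNA-seq of OE-19 cells comprised 6 libraries. The deposited values are raw counts per gene, for which the authors used a directional poly(A) kit, paired reads of 150 bases, alignment by hisat2 to hg38 and featureCounts. Versions, the annotation release and the strand setting are not given in the sources used here, and the submitters' notes also name fastp. Of 60612 listed entries, 132 repeats of 44 identifiers were removed. Total counts were 53424071 to 69989087 per library, with TMM factors of 0.992 to 1.01. Libraries of the same group differed beyond sampling noise (chi-square over degrees of freedom 9.86 to 17.6, against 46.3 to 58.2 between groups). All 6 libraries were fitted with edgeR 4.0.16 in R 4.3.3 (TMM, quasi-likelihood test, no block, filterByExpr at min.count 10 and min.total.count 15), with Benjamini-Hochberg adjustment over 19778 genes and a threshold of 0.05. The script was tested on simulated data. Ratios were compared with two-sided exact permutation tests. Transcripts and 3′ UTRs came from GENCODE v44 on hg38 and promoters from RefSeq on GRCh38.p14. The S-phase and G2/M lists came from Seurat 5.3.0. The 10 genes, the lists, the words and the tests were chosen with earlier results of these data known. All 10 genes, every other cohesin regulator listed, and of condensin and SMC5/6 the largest called change in each direction and all called genes where at most 4, were named; *NCAPH2* and *EID3* were named after their values were seen. A regulator and a leukocyte marker of the original lists are not reported here and were left out of the lists' counts. Alternatives were RLE scaling, DESeq2 1.42.0, no filter, a filter of 10 counts in all libraries, a replicate block, each library left out, and trends on GC content or exon length removed.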

Additional observations from a re-analysis of the deposited data

How the results depend on the processing

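Over the 14 alternatives, 6 to 8 of the 10 cohesin genes were lower. *SMC1A*, *SMC3*, *RAD21*, *STAG1*, *NIPBL* and *PDS5B* were called in all 14, *ESCO2* in none (adjusted p 0.0574 to 0.389), and no cohesin gene changed direction. With each library left out, the count of lower genes was 6 to 8, that of higher genes 0 to 1, and that of higher SMC5/6 genes 0 to 1. With no low-count filter the count of higher cohesin genes was 0, since *STAG2* had an adjusted p of 0.0586, and that of higher SMC5/6 genes was 0; more genes are tested there. The count of lower genes among other regulators was 4 to 5, of condensin 7 to 8 and of SMC5/6 2. The difference of the log2 ratio of *STAG2* to *STAG1* was 0.36 to 0.42 with each library left out, and that of *PDS5A* to *PDS5B* 0.28 to 0.33. *IGF2BP3* stayed between -3.10 and -3.00.

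With a replicate block 7 cohesin genes were lower and 1 higher, *PDS5A* had an adjusted p of 0.0631 and *MAU2* one of 0.0363, and the differences of the log2 ratios were 0.39, 0.30, -0.08 and -0.05, with paired exact p-values of 0.25, 0.25, 0.25 and 0.5, where 0.25 is the smallest possible. Deviations from the group means correlated at -0.00116, -0.0309 and 0.0143 between same-numbered libraries, over all genes tested. The labels do not say whether same-numbered libraries were handled together. The correlations cannot decide it, since they weigh genes with few counts like all others.

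Some genes that did not pass the test changed sign. With each library left out *ESCO1* ranged from -0.0074 to 0.0964, *HDAC8* from -0.0533 to 0.0651, *SGO2* from -0.046 to 0.0020 and *PTTG1* from -0.0184 to 0.0672. *ESCO1* and *HDAC8* were negative without control replicate 2, *HDAC8* also without IGF2BP3 KD replicate 1 (-0.0036) and *PTTG1* without IGF2BP3 KD replicate 2, while *SGO2* was positive without control replicate 1. *PTTG1* was -0.0093 with the exon length trend removed. The cause was not tested. The smallest change called among the 10 genes was -0.11, and each call covers the spread of 3 libraries a group only.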
